A study of Mus musculus with 2 samples.

Results

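The genes described here are those of the enzymes that act on foreign and endogenous small molecules, namely the cytochromes P450 of families 1 to 4 (*Cyp*), the glutathione S-transferases (*Gst*, *Mgst*) and the UDP-glucuronosyltransferases (*Ugt*). They were chosen by symbol, from 13 prefixes, with at least 20 UMIs (unique molecular identifiers, each a counted transcript molecule) over the 2 libraries together. Of 87 genes with these prefixes, 62 met the limit, among 13155 genes of all kinds that did so. Just inside the limit were *Cyp2c38* with 10 UMIs in either library and *Cyp4f15* with 17 and 4, and just outside it *Cyp2c67* with 14 and 5 and *Cyp3a59* with 13 and 6. The prefixes also take in *Cyp11a1*, *Cyp20a1* and *Cyp39a1*, which belong to other P450 families.

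In the classical scheme, P450 enzymes oxidise a lipophilic compound in the endoplasmic reticulum, and transferases then join the product to glutathione or glucuronic acid so that it can be exported. Enterocytes, the absorptive cells of the villus, are the main intestinal site of these reactions and the first barrier to compounds taken up with food. Nuclear receptors and other sensors (Pxr encoded by *Nr1i2*, Car by *Nr1i3*, Ahr, Nrf2 by *Nfe2l2*) and the enterocyte factor Hnf4a control many of these genes.

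The cells came from enteroids, 3-dimensional cultures of intestinal epithelium, grown from crypts of the ileum. The mice were 4 months old and of mixed C57Bl6 and 129sv background. By the methods of the study, both genotypes carried *Taf4* alleles flanked by lox sites (*Taf4* lox/lox). *Taf4*IEC enteroids also carried VilCreERT2, a Cre recombinase driven by the epithelial villin promoter and switched on by 4-hydroxytamoxifen (4-OHT). They were given 4-OHT at 1 µM for 3 days up to collection of the cells. For the control library the label names wild-type enteroids with ethanol, whereas the methods of the study describe *Taf4* lox/lox enteroids that also received 4-OHT. 4-OHT is itself a foreign compound, so if the label is right, genotype and agent cannot be told apart. Each group was 1 library of live sorted cells, and library and genotype cannot be told apart either. No test between groups was possible, and all intervals are 95% intervals of counting error.

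The control library held 39947009 UMIs in 2563 cells (median 16749 per cell) and the *Taf4*IEC library 24990128 UMIs in 1811 cells (median 2254), with 17.3% and 49.1% of cells under 2000 UMIs. All 7 epithelial markers were detected in both libraries, and 12 markers of immune, stromal, endothelial and glial cells, of which 8 and 7 were at 0, together made up 0.0153 and 0.0160 UMIs per 10000. *Taf4* itself was at 0.0696 and 0.0944 per 10000. The reads come from the 3′ end of transcripts, and whether the deleted part of *Taf4* lies there is not given in the sources used here, so this level does not check the labels. The libraries had 2 cell barcodes in common.

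Levels are given as UMIs per 10000 UMIs of a library or cell class, control first. The 62 genes together took 41.5 per 10000 UMIs in the control (41.3 to 41.7) and 103 in *Taf4*IEC (102 to 103). A level at least 2-fold higher in *Taf4*IEC than in the control was seen for 28 of them, against 10.5% of all 13155 genes, and a level at least 2-fold lower for 4, against 5.32% of all genes. The median log2 ratio of *Taf4*IEC over control was 0.86 for the 62 genes and 0.18 for all genes. When mitochondrial and ribosomal protein genes, *Gm42418* and *AY036118* were left out of the total, the median of all genes was 0.00, that of the 62 genes 0.68, and 22 were higher and 4 lower, with 1025 higher and 903 lower among all genes. The counting interval of the ratio lay above 0 for 46 of the 62 genes, below 0 for 5, and held 0 for 11. No such count is given over all genes, so these numbers do not set the 62 genes apart. The 46 include *Cyp2e1* and the 5 include *Cyp2c37*, each listed for 1 library only.

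Cell classes, named from markers after clustering, contributed differently to the sums. The 12 enterocyte markers, of which none was at 0, stood at 27.7 per 10000 in the control and 62.9 in *Taf4*IEC, the 20 Paneth and goblet markers at 64.2 and 214, and enterocyte-like cells gave 10.97% and 18.3% of all UMIs. By number they were 8.66% of control cells (7.60 to 9.82%) and 9.22% of *Taf4*IEC cells (7.93 to 10.6%), with medians of 21295.5 and 32995 UMIs per cell, and Paneth/goblet-like cells were 7.76% and 6.96% of cells. Stem-like cells were 46.8% and 24.2% of cells, and unnamed cells 28.6% and 48.4%. With the share of each cell class held at that of the control, 18 of the 62 genes were at least 2-fold higher and 5 lower, against 991 and 565 of all 13155 genes, and the median log2 ratio was 0.44 (0.19 for all genes). Without the enterocyte-like cells 29 of 57 genes were higher and 2 lower, against 1548 and 619 of 12947 genes, and the median was 1.01 (0.22 for all genes). Both settings keep the unnamed cells, in which the 62 genes summed to 35.8 and 106 per 10000. Among them the enterocyte markers summed to 11.6 per 10000 in a control cluster of 250 cells and 35.0 in a *Taf4*IEC cluster of 202. Their part in either result was not tested.

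**Figure D1:**
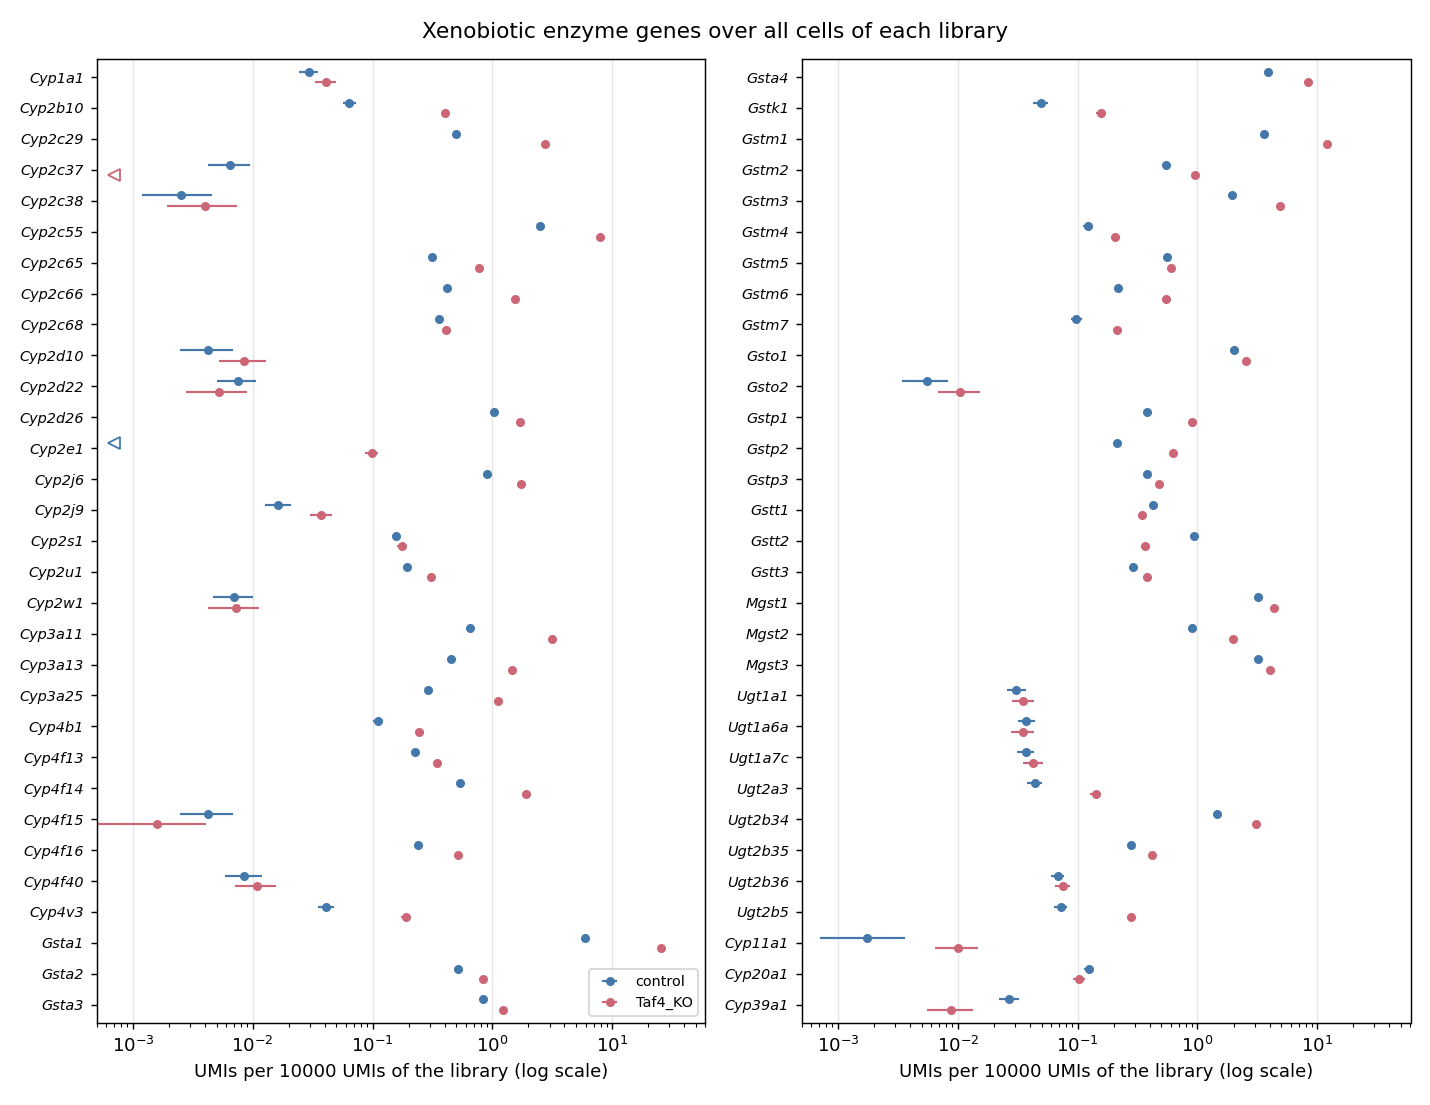
Levels of the 62 genes over all cells of the control (blue) and *Taf4*IEC (red, Taf4_KO) libraries, in UMIs per 10000 on a log axis, with exact 95% Poisson intervals as bars and open triangles for no UMI. *Gsta1* lies at 5.97 and 25.8, and *Gstt2*, one of the 4 genes at least 2-fold lower in *Taf4*IEC, at 0.930 and 0.364.

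Among the P450 genes, the members of family 3, which oxidise a wide range of drugs and steroids, were all higher in *Taf4*IEC. *Cyp3a11*, a standard target of Pxr, was at 0.649 per 10000 in the control (0.624 to 0.674) and 3.13 in *Taf4*IEC (3.06 to 3.20), a log2 ratio of 2.27. *Cyp3a13* was at 0.451 and 1.45, and *Cyp3a25* at 0.290 and 1.12. On the log2 scale the ratios of the latter 2 were 1.69 (1.60 to 1.77) and 1.95 (1.85 to 2.05).

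Family 2, with 17 genes, held both the largest differences and several that did not differ beyond counting error. *Cyp2b10*, a standard target of Car, was at 0.0641 per 10000 in the control and 0.405 in *Taf4*IEC (log2 ratio 2.66, 2.46 to 2.86), and *Cyp2c29* at 0.498 and 2.77 (log2 ratio 2.48, 2.41 to 2.55). *Cyp2c55*, which hydroxylates arachidonic acid, had the most UMIs of the P450 genes, with 2.48 and 7.97 per 10000. Of the 17 genes, 7 were at least 2-fold higher, 1 lower and 9 within 2-fold, and the interval of the ratio held 0 for 5. One of these 5 was *Cyp2s1*, an extrahepatic P450 of epithelia, at 0.157 and 0.175 per 10000.

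*Cyp2e1*, which oxidises ethanol and small solvents, gave 246 UMIs in *Taf4*IEC (0.0984 per 10000) and is not listed in the table of the control. *Cyp2c37*, with 26 UMIs in the control, is in turn not listed in that of *Taf4*IEC. No fold is given for this pair, since a gene seen in very few cells may have been left out of a table. In the counts above they enter at a floor of 3 UMIs per library. The same floor holds in the class counts below. There *Cyp2c37* is among the genes lower in enterocyte-like cells of *Taf4*IEC, and *Cyp2e1* among those higher in its stem-like and Paneth/goblet-like cells. *Cyp2e1* is also among the genes lower in enterocyte-like than in stem-like cells of *Taf4*IEC.

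*Cyp1a1*, the standard target of Ahr, was rare in both libraries, with 118 UMIs (0.0295 per 10000) and 102 UMIs (0.0408), a log2 ratio of 0.47 (0.07 to 0.86). Over cell classes it had opposite signs, with 104 and 14 UMIs in stem-like cells and 4 and 55 UMIs in enterocyte-like cells. The latter came from 2 of 222 control cells and 19 of 167 *Taf4*IEC cells. The ratio over all cells was below 0 without the 5% deepest cells (-0.46) and without the enterocyte-like cells (-0.48).

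In family 4, whose members mainly hydroxylate fatty acids and related lipids, 4 of 7 genes were at least 2-fold higher in *Taf4*IEC. *Cyp4f14* was at 0.537 and 1.89 per 10000, and *Cyp4v3* at 0.0408 and 0.191 (log2 ratio 2.23, 1.97 to 2.49). *Cyp4f15*, with 17 and 4 UMIs, was the 1 gene at least 2-fold lower, and the interval of its ratio held 0 (-3.44 to 0.21). Of the genes from other families, *Cyp39a1*, an oxysterol hydroxylase of bile acid synthesis, was lower in *Taf4*IEC (0.0268 and 0.00880 per 10000), as was *Cyp20a1*, a P450 without known substrate (0.124 and 0.103), whose log2 ratio was 0.03 when levels were averaged over cells. *Cyp11a1*, which starts steroid synthesis from cholesterol, had 7 and 25 UMIs.

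The promoters of 4 P450 genes are shown because these genes were at least 2-fold higher in *Taf4*IEC and hold a short stretch that Hnf4a is known to bind. Each window covers 250 bases before and 50 after the start in RefSeq (build GRCm38.p6, the mm10 assembly), written 5′ to 3′ along the gene, with CAAAGTC, the core of the Hnf4 motif, in capitals. They lie at chr5:145879805-145880104 (*Cyp3a11*, minus strand), chr19:39286835-39287134 (*Cyp2c29*, plus strand), chr19:39060756-39061055 (*Cyp2c65*, plus strand) and chr19:39113648-39113947 (*Cyp2c66*, plus strand).
*Cyp3a11*: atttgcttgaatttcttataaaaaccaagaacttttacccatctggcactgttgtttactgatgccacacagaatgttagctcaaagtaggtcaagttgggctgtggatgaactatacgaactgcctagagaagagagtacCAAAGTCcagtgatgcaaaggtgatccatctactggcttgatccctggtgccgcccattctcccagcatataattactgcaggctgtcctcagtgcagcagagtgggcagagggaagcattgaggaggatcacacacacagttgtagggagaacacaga
*Cyp2c29*: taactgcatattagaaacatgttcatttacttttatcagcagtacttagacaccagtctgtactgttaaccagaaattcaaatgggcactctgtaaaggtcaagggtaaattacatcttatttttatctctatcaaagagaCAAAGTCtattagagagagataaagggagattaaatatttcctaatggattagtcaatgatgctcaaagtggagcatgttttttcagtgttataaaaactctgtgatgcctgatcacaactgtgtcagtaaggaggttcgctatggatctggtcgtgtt
*Cyp2c65*: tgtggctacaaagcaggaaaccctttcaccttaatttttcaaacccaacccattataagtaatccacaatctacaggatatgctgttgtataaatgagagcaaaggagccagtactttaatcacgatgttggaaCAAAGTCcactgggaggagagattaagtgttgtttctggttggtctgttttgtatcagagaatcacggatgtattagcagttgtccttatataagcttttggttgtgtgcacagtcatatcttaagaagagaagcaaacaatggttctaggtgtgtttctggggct
*Cyp2c66*: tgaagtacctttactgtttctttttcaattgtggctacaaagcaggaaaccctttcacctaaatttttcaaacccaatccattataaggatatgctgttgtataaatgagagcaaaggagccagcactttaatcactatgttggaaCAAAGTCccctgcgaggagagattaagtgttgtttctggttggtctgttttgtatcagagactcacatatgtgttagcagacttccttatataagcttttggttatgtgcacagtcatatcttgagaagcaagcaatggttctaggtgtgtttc

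Of the 62 genes, 57 had such windows, 71 in all because some genes have several starts. The core CAAAGTC, on either strand, was found in 8 of the 71 windows (11.3%) and in 4.44% of all 32851 windows. The genes with it were *Cyp2c29*, *Cyp2c37*, *Cyp2c65*, *Cyp2c66*, *Cyp2c68*, *Cyp3a11*, *Gstm3* and *Mgst3*. Of these *Cyp2c68* (0.358 and 0.413 per 10000) and *Mgst3* (3.21 and 4.00) were within 2-fold, and *Cyp2c37* is not listed in *Taf4*IEC, so holding the core did not go with a higher level in each gene. The longer form CAAAGTCCA, which contains the core, was in 3 of the 71 windows (4.23%), against 0.475% of all. The antioxidant response element bound by Nrf2, TGACNNNGC, was in 8 windows (11.3%, against 12.4% of all), and the xenobiotic response element bound by Ahr, TNGCGTG, in 2 (2.82%, against 5.07%). *Cyp2c* genes are related neighbours on chromosome 19, so their matches are not independent. A match is a description of these letters and not a site of binding.

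The glutathione S-transferases made up most of the UMIs. *Gsta1*, an alpha-class enzyme of the cytosol, gave 23844 UMIs in the control and 64363 in *Taf4*IEC, or 5.97 per 10000 (5.89 to 6.05) and 25.8 (25.6 to 26.0), a log2 ratio of 2.11. Its last 500 transcript bases are for 87.5% shared with *Gsta2* and 3 predicted genes, so reads from them could have been split or lost in counting. Of these *Gm3776* is counted separately and was at 1.36 and 3.62 per 10000. *Gsta4*, which detoxifies aldehydes from lipid peroxidation, shares no such stretch with another gene and was at 3.87 and 8.34 per 10000.

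In the mu class, which forms 1 cluster of 7 genes on chromosome 3, all 7 genes had a ratio above 0 and 4 were at least 2-fold higher. *Gstm1* was at 3.59 per 10000 in the control and 11.97 in *Taf4*IEC (log2 ratio 1.74, 1.71 to 1.77), and *Gstm3* at 1.94 and 4.93. *Gstm5*, at the start of the cluster, was at 0.555 and 0.605 (log2 ratio 0.12), and with the alternative total the sign turned (-0.06). Neighbours on the chromosome therefore had different ratios.

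The pi-class pair *Gstp1* and *Gstp2*, which share 71.9% and 72.3% of their last 500 bases and are uncertain in the same way, were at 0.383 and 0.909 and at 0.215 and 0.628 per 10000. *Gstk1*, the kappa-class enzyme of mitochondria and peroxisomes, was at 0.0491 and 0.157. The membrane enzymes *Mgst1* and *Mgst3* and the omega-class *Gsto1* were abundant and within 2-fold, with log2 ratios of 0.44, 0.31 and 0.32, whereas *Mgst2* reached 1.13.

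The theta class, whose enzymes act on halogenated and other electrophilic compounds, held 1 gene of 3 at least 2-fold lower and none higher. *Gstt2* was at 0.930 per 10000 in the control (0.901 to 0.961) and 0.364 in *Taf4*IEC (0.341 to 0.389). On the log2 scale the ratio was -1.35 (-1.46 to -1.25). *Gstt1*, its neighbour on chromosome 10, was at 0.430 and 0.348, and *Gstt3*, from the same locus, was higher in *Taf4*IEC (0.292 and 0.377, log2 ratio 0.37), so the 3 genes had no common direction. The lower *Gstt2* level was found in all 4 cell classes named in both libraries, with log2 ratios of -1.82 for Paneth/goblet-like, -1.32 for enteroendocrine-like, -1.29 for enterocyte-like and -1.17 for stem-like cells. It was also the one gene of the 62 that was at least 2-fold lower in each of these classes.

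Glucuronosyltransferases gave fewer UMIs than the P450 genes or the transferases of glutathione. *Ugt2b34*, of the subfamily that conjugates steroids and bile acids, was at 1.45 per 10000 in the control and 3.08 in *Taf4*IEC (log2 ratio 1.09, 1.04 to 1.14), *Ugt2b5* at 0.0721 and 0.277, and *Ugt2a3* at 0.0438 and 0.141. The *Ugt1a* genes each have their own first exon and share all later ones, so counts at the 3′ end cannot be assigned to 1 of them. *Ugt1a1*, which conjugates bilirubin, *Ugt1a6a* and *Ugt1a7c* summed to 0.105 and 0.112 per 10000, and the interval of the ratio held 0 for each.

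To find which cells carried these genes, cells were clustered in each library with the 62 genes and all markers left out, and clusters were then named from markers. Stem-like cells numbered 1200 in the control and 439 in *Taf4*IEC, enterocyte-like cells 222 and 167, Paneth/goblet-like cells 199 and 126, and enteroendocrine-like cells 208 and 187. Tuft-like cells were named in *Taf4*IEC alone (15 cells). The other 734 and 877 cells were unnamed, mostly because they had too few markers, and had a median of 1709.5 and 711 UMIs.

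Enterocyte-like cells had the highest summed level of the 62 genes in both libraries. In the control the sum was 21.8 per 10000 in stem-like and 192 in enterocyte-like cells, and in *Taf4*IEC 31.2 and 344. Paneth/goblet-like cells were at 17.7 and 17.5, and enteroendocrine-like cells at 13.8 and 16.1.

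**Figure D2:**
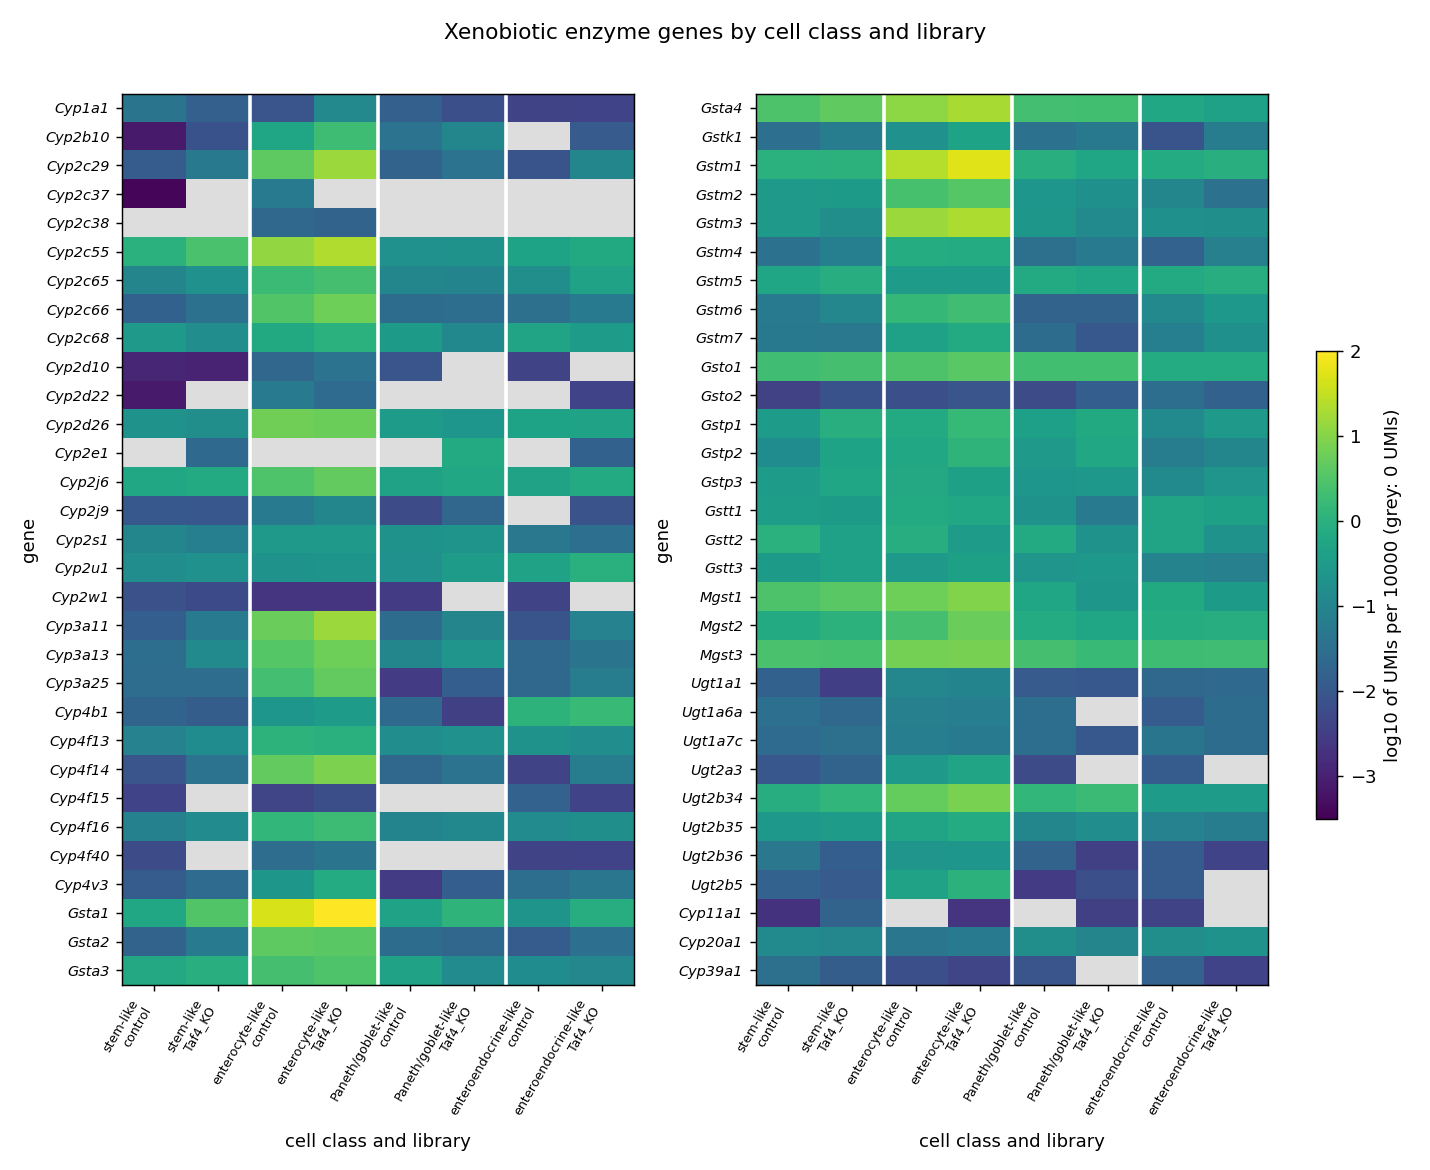
Levels of the 62 genes (rows) in the 4 cell classes named in both libraries (column pairs, control left, Taf4_KO right), as log10 of UMIs per 10000, with grey where there was no UMI. The enterocyte-like pair is the brightest for most genes, whereas *Gstt2*, *Gstt3*, *Gstm5* and *Cyp20a1* have similar levels in stem-like and enterocyte-like cells or lower ones in the latter.

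In the control, 44 of 55 genes with at least 20 UMIs in the 2 classes were at least 2-fold higher in enterocyte-like than in stem-like cells, and 3 were lower, against 12.8% and 32.7% of all genes. The median log2 ratio of enterocyte-like over stem-like was 2.59. In *Taf4*IEC these numbers were 41 of 52 higher and 2 lower, against 10.8% and 36.5% of all genes, with a median of 3.01. The classes were defined within each library without these genes, and the ratios are descriptions.

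The steepest gradients were those of P450 genes. *Cyp2b10* was at 0.000807 per 10000 in stem-like and 0.548 in enterocyte-like cells of the control, and at 0.00767 and 1.96 in *Taf4*IEC. Its stem-like levels rest on 2 and 7 UMIs, with log2 gradients of 9.41 (7.54 to 12.5) and 7.99 (6.95 to 9.31). *Cyp4f14* went from 0.00888 to 4.68 in the control and from 0.0394 to 8.11 in *Taf4*IEC, and *Cyp3a11* from 0.0137 to 5.64 and from 0.0592 to 15.2. *Cyp2c29*, among genes with at least 200 UMIs the most concentrated in enterocyte-like cells by the lower of both libraries, was 5.26 times as high there as over all cells.

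Among the transferases, *Gsta1* went from 0.608 per 10000 in stem-like to 46.8 in enterocyte-like cells of the control, and from 3.23 to 96.0 in *Taf4*IEC. *Gstm3* went from 0.296 to 14.8 and from 0.164 to 21.5. By contrast *Gsto1* was nearly level (2.04 and 2.91 in the control, 2.43 and 3.86 in *Taf4*IEC), and so was *Gstt3* (0.320 and 0.306, 0.440 and 0.415). *Gstm5* ran the other way from its neighbours, with 0.573 in stem-like and 0.349 in enterocyte-like cells of the control, and 0.829 and 0.324 in *Taf4*IEC. Transferases thus differed in where they were found even within 1 gene cluster.

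Shares of cells were read after each cell was thinned to 2000 UMIs, which left out 10 and 101 stem-like and 12 and 32 enterocyte-like cells. *Gsta1* was then seen in 9.75% of control stem-like cells (8.12 to 11.6%) and 29.9% of *Taf4*IEC ones (25.0 to 35.1%), against 46.4% and 76.5% unthinned at median depths of 20627.5 and 23855 UMIs. In enterocyte-like cells it was seen in 96.7% and 100% of the thinned cells. In enteroendocrine-like cells, which are not a known site of this enzyme, the thinned shares were 5.56% (2.81 to 9.72%) and 14.9% (9.36 to 22.1%) at median depths of 11016 and 14216 UMIs before thinning. How much of the stem-like share is free RNA was not tested. *Cyp3a11* was seen in 44.8% of thinned control enterocyte-like cells (37.9 to 51.8%) and 83.7% of *Taf4*IEC ones (76.4 to 89.5%). Among enteroendocrine-like cells it was seen in 0.505% in the control and in 0 of 134 thinned cells in *Taf4*IEC, where a limit of 3 cells allows a share with a UMI of up to 2.24% and the exact interval reaches 2.72%. Before thinning the enterocyte-like shares were 74.3% and 92.8%, at median depths of 21295.5 and 32995 UMIs.

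A few genes belonged to other cells. *Cyp4b1*, which oxidises fatty acids and some plant toxins, was highest in enteroendocrine-like cells, at 1.14 per 10000 in the control (266 UMIs) and 1.62 in *Taf4*IEC (400 UMIs), against 0.247 and 0.348 in enterocyte-like cells. *Cyp2u1*, a fatty acid hydroxylase, was likewise higher in enteroendocrine-like cells (0.473 and 0.968) than in enterocyte-like ones (0.205 and 0.221). For Paneth/goblet-like cells the highest such concentration, by the lower of both libraries, was that of *Cyp2s1*, at 1.28 times its level over all cells. The ranking took in genes listed in both libraries with at least 200 UMIs. *Cyp2s1* was at 0.213 and 0.224 per 10000 there and at 0.285 and 0.306 in enterocyte-like cells. So no gene of this ranking was found mainly in Paneth/goblet-like cells of both libraries. Genes with fewer UMIs were not ranked.

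*Cyp2e1* was found mainly in Paneth/goblet-like cells of *Taf4*IEC, which gave 210 of its 246 UMIs and where its level was 0.734 per 10000 (0.638 to 0.840). It was seen in 28 of these 126 cells (22.2%), with at most 63 UMIs in a cell, and in 9.80% of the 102 cells that could be thinned. In the other classes its largest count was 22 UMIs in stem-like cells, and the enterocyte-like cells of *Taf4*IEC had none. For the control no level is given, since its table does not list the gene.

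The clusters within classes showed how the sum varied further. Control stem-like clusters, 5 in number, lay between 20.1 and 26.4 per 10000 for the 62 genes together, and the 4 of *Taf4*IEC between 21.8 and 33.6. The enterocyte-like class of the control consisted of a cluster of 204 cells at 192 and a cluster of 18 shallow cells at 248, in which *Reg3b* and *Fabp6* were high. In those 18 cells *Gsta1* was at 102 per 10000 (92.7 to 111) and *Gstm1* at 51.1, against 46.2 and 23.9 in the larger cluster, but *Cyp2c29* had 1 UMI (0.208 per 10000, 0.00526 to 1.16) against 4.43. The values of the small cluster rest on 48163 UMIs.

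**Figure D3:**
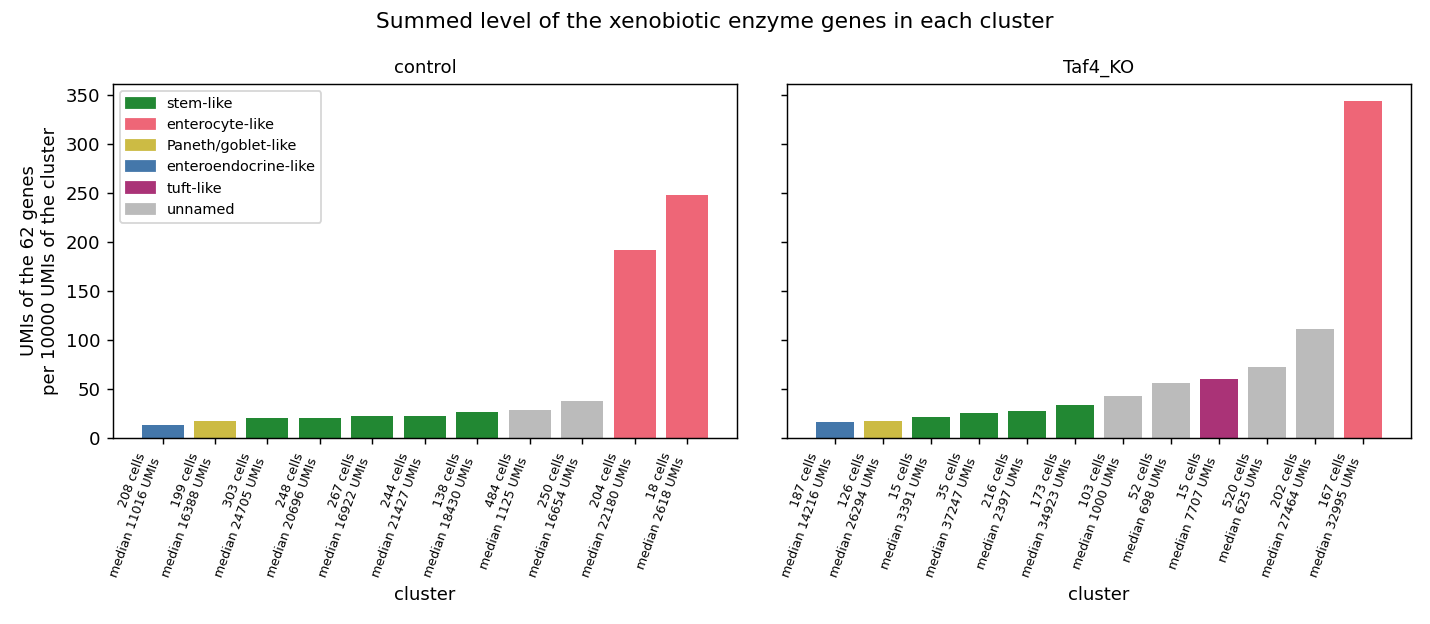
Summed level of the 62 genes in every cluster of both libraries (bars, in UMIs per 10000 of the cluster, from 0), coloured by cell class and labelled with the number of cells and their median UMIs. Enterocyte-like clusters stand highest (192, 248 and 344), followed in *Taf4*IEC by an unnamed cluster of 202 cells at 112.

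An unnamed cluster of deep cells was found in either library, 250 cells in the control (median 16654.5 UMIs) and 202 in *Taf4*IEC (median 27464). They were found separately and need not be cells of 1 kind. The sum of the 62 genes was 37.7 per 10000 in the former and 112 in the latter. *Gsta1* was at 3.24 and 31.0, *Cyp2c55* at 3.60 and 13.6, and *Gstm1* at 1.28 and 6.53, whereas *Mgst1* was at 5.26 and 5.62. The 12 enterocyte markers summed to 11.6 and 35.0 per 10000 there, against 190 and 250 in the large enterocyte-like clusters. *Cyp2c29*, at 0.0267 and 0.181 per 10000, was far below its level in the large enterocyte-like clusters (4.43 and 14.6).

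Within enterocyte-like cells, the control and *Taf4*IEC libraries were closer than over all cells. Of 55 genes 12 were at least 2-fold higher in *Taf4*IEC and 3 lower, against 4.34% and 3.52% of all genes, and the median log2 ratio was 0.54 (0.03 for all genes). *Cyp2b10* was at 0.548 and 1.96 per 10000 (log2 ratio 1.84, 1.63 to 2.05), *Cyp2c29* at 4.39 and 14.6, and *Cyp3a11* at 5.64 and 15.2. *Gsta1* was at 46.8 and 96.0 and *Gstm1* at 24.2 and 54.6. *Cyp2d26*, another abundant P450 gene, was at 6.41 and 5.83, so not every enterocyte gene of these families was higher.

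This count rested on which cells formed the class. With a clustering resolution of 0.5 or 1.4, or with both libraries clustered together, the *Taf4*IEC class grew from 167 to 296, 268 and 263 cells. In each case 1 of 55 genes was at least 2-fold higher, against 690 of 9942, 749 of 9997 and 711 of 9792 of all genes. Lower were 3, 4 and 4 of the 55, against 265, 261 and 253 of all genes. The median log2 ratio was 0.13, 0.11 and 0.14 (all genes 0.10, 0.11 and 0.10). The sum of the enterocyte markers also differed within the class as first defined, at 190 and 199 per 10000 in the control clusters and 250 in *Taf4*IEC. Its part in the result was not tested.

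Stem-like cells gave lower levels but also differences. Of 54 genes 14 were at least 2-fold higher in *Taf4*IEC and 5 lower, against 7.12% and 4.85% of all genes, with a median log2 ratio of 0.41 (0.20 for all genes). *Gsta1* was at 0.608 and 3.23 per 10000 (log2 ratio 2.41, 2.32 to 2.50), *Cyp2c55* at 1.03 and 2.62, and *Gstp1* at 0.334 and 0.881. *Gstm1* did not differ beyond counting error (1.03 and 1.06), and *Gstm3* was lower (0.296 and 0.164). When naming asked for markers at 2 times the mean, the class fell from 1200 and 439 to 138 and 35 cells. Of 31 genes 1 was then higher and 6 lower, against 1087 and 511 of 8782 genes. The median turned to -0.23 (0.25 for all genes). The stem-like class of *Taf4*IEC as first named included 216 cells of a shallow cluster (median 2397 UMIs). There the Paneth/goblet marker *Lyz1* was at 17.4 per 10000, against 0.308 to 1.78 in the other stem-like clusters of *Taf4*IEC and 0.103 to 0.954 in those of the control. The 12 enterocyte markers summed to 4.69 to 5.43 per 10000 in the control stem-like clusters and 4.59 to 8.11 in those of *Taf4*IEC. The part of such RNA in the result was not tested.

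In Paneth/goblet-like cells 6 of 35 genes were at least 2-fold higher and 5 lower, against 4.81% and 4.24% of all genes, and the median log2 ratio was 0.14 (0.06 for all genes). With the alternative total 4 were higher and 6 lower, against 268 and 629 of all 9429 genes, and the median was -0.07 (-0.16 for all genes). Clustering both libraries together gave 15 higher and 3 lower of 44 genes, against 633 and 241 of all 9902. Clustering without regression gave 13 and 3 of 42, against 540 and 275 of all 9599. The *Taf4*IEC class then held 709 and 665 cells instead of 126, and the control class 209 and 183 instead of 199. In the class as first named *Gsta1* was at 0.456 and 1.21 per 10000, *Gstt1* at 0.198 and 0.0594, and *Mgst1* at 0.541 and 0.259. In enteroendocrine-like cells 10 of 37 were higher and 3 lower, against 7.69% and 2.35% of all genes, with a median log2 ratio of 0.21 (0.25 for all genes). The median was -0.14 with markers at 1.5 times the other cells (0.37 for all genes) and -0.015 with the alternative total (0.02). It was 1.02 with averages over cells (0.13), where 19 were higher, against 885 of 10149 genes. With markers at 1.5 times the other cells the control class grew from 208 to 692 cells, and the *Taf4*IEC class stayed at 187. The 12 enterocyte markers summed to 27.7 and 56.5 per 10000 in the enteroendocrine-like cells as first named, and their part in the result was not tested. There *Gsta1* was at 0.228 and 0.826, and *Mgst1* at 0.709 and 0.316, so that *Mgst1* was lower in both secretory classes of *Taf4*IEC and higher in its enterocyte-like cells (5.999 and 8.98).

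**Figure D4:**
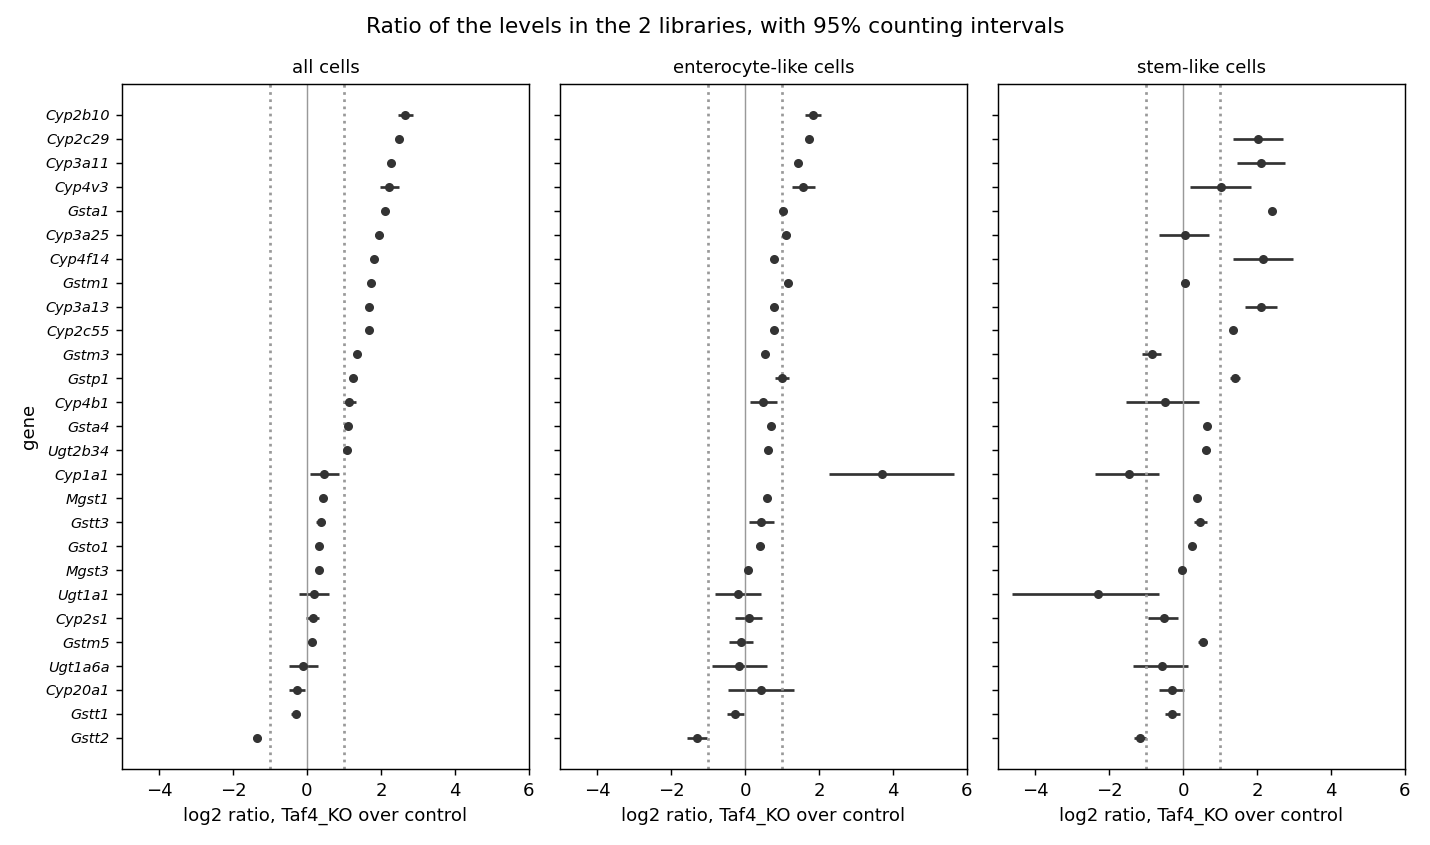
Log2 ratio of the level in Taf4_KO (*Taf4*IEC) over control for the named genes, over all cells (left), in enterocyte-like (middle) and in stem-like cells (right), with 95% counting intervals as bars and dotted lines at a 2-fold difference. *Gstt2* is below -1 in all 3 panels, *Gsta1* above 1 in all 3, and *Cyp1a1* lies on opposite sides of 0 in enterocyte-like (3.72) and stem-like cells (-1.45). *Cyp2e1*, and genes with under 20 UMIs in a class, are not drawn there.

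The genes that regulate or serve these enzymes were read from a list of 80 outside the prefixes, of which 75 had at least 20 UMIs. At least 2-fold higher in *Taf4*IEC were 20 of them and lower 1, against 10.5% and 5.32% of all genes, and the median log2 ratio was 0.63 (0.18 for all genes). With class shares held at those of the control 8 of 75 were higher and 1 lower, against 991 and 565 of all 13155 genes, and the median was 0.29 (0.19 for all genes). Of the sensors *Nr1i3* was at 0.0774 and 0.217 per 10000, and the others named here were within 2-fold, with *Ahr* at 0.0566 and 0.0560 per 10000, *Nr1i2* at 0.123 and 0.140, *Nfe2l2* at 0.989 and 1.89, and *Hnf4a* at 0.699 and 0.952. *Por*, the reductase that supplies electrons to every microsomal P450, was at 0.687 and 0.897.

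Some other enzymes of the list had larger ratios than these sensors. The carboxylesterases *Ces1d* (0.0759 and 0.370 per 10000) and *Ces2c* (1.04 and 3.18), the retinal dehydrogenase *Aldh1a1* (0.237 and 0.922), the flavin monooxygenase *Fmo5* (0.0586 and 0.180) and the reductase *Akr1c14* (0.152 and 0.466) had the highest among genes with at least 200 UMIs. *Nqo1*, a standard Nrf2 target, was at 0.168 and 0.394, and the efflux pump *Abcb1a* at 0.989 and 2.43. The lowest were the sulfotransferase *Sult1c2* (0.911 and 0.429), *Aldh1b1* (2.69 and 1.94), *Pparg* (0.243 and 0.189), *Nat2* (0.0748 and 0.0648) and *Tst* (0.379 and 0.344).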

How the data were processed

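Single-cell RNA-seq of 2 libraries was analysed, 1 of control and 1 of *Taf4*IEC enteroids. The authors deposited UMI counts per gene and cell, made with the 10X 3′ method, without normalization. Per the submitters' processing notes they used bcl2fastq 2.17.1.14, Cell Ranger 3.1, Seurat 3.1.4 and mm10, and the methods describe a filter on genes and mitochondrial reads per cell. The files show 272 to 4999 genes per cell in the control and 269 to 5997 in *Taf4*IEC, with at most 15.0% and 14.9% mitochondrial UMIs. Unexpressed genes had been removed per library, while 157 and 189 listed genes have no UMI in these cells.

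Counts were summed per library and class in Python 3.11.15 (pandas 2.3.3, scipy 1.17.1, numpy 2.4.6), and matplotlib 3.10.9 drew the figures. Levels have exact Poisson intervals, log2 ratios exact conditional binomial intervals and shares Clopper-Pearson intervals, all at 95% and for counting error only. With 1 library per group no test was made, and a difference was called from 2-fold. Genes needed at least 20 UMIs over both libraries in the cells compared, and a count of 0 was set to 3 UMIs.

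Cells were clustered per library with R 4.3.3 and Seurat 5.3.0 from the 2000 most variable genes, of which 1889 and 1887 were used after members and markers were left out, with 20 principal components and resolution 0.9. A cluster was named from at least 3 markers with at least 10 UMIs at 1.5 times the mean, and stayed unnamed where its 10 leading genes went against the name or its depth was under 0.333 of that of its library without such a marker. No doublet caller was run, and an alternative left out the 5% deepest cells. Shares of cells were compared at 2000 UMIs per cell. The functions were tested on simulated data.

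The members and lists were chosen with earlier results of these data known, and the naming rule was set after marker tables had been seen, so neither is independent support. Named were the 10 members with the most UMIs, the 5 highest and 5 lowest ratios with at least 200 UMIs, the gene most concentrated in each class (also with at least 200 UMIs), a set list of members, and of the pathway list the 5 highest and 5 lowest ratios and a set list of sensors and targets. Other genes were named after their values were seen. Promoter windows and positions are from RefSeq (GRCm38.p6). Shared 3′ ends were counted as shared 60-base words in the last 500 transcript bases of an older annotation (GENCODE M1), in which 61 of the 62 genes had a transcript. The alternatives were another total, other cell filters and count minimums, averages over cells, other clusterings and other naming limits.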

Additional observations from a re-analysis of the deposited data

Results flagged for a closer look

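For 4 genes the log2 ratio of *Taf4*IEC over control had opposite signs in enterocyte-like and stem-like cells, with both counting intervals clear of 0. *Cyp1a1* was at 3.72 in enterocyte-like (2.28 to 5.64) and -1.45 in stem-like cells (-2.37 to -0.64), on 4 UMIs in the control enterocyte-like cells. *Cyp2c68* was at 0.55 (0.34 to 0.76) and -0.87 (-1.14 to -0.61). *Gstm3* was at 0.54 (0.49 to 0.58) and -0.85 (-1.11 to -0.59), but its enterocyte-like ratio was -0.13 and -0.18 with resolutions of 0.5 and 1.4 and -0.24 with both libraries clustered together, and its stem-like ratio 0.22 with averages over cells, so that the opposite signs were lost under these settings. *Gstp3* ran the other way, at -0.61 (-0.88 to -0.34) and 0.71 (0.55 to 0.87). *Cyp2c68* and *Gstp3* were not recomputed under the alternatives. With 1 library per group the difference was not tested for any of them.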

How the results depend on the processing

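No paired analysis was possible because each group was 1 library, and for the same reason no library was left out. Holding class shares, requiring 2000 UMIs per cell and leaving out enterocyte-like cells were chosen after seeing the data. The cause of each change was not tested, except that a minimum of 100 UMIs leaves fewer genes to count.

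Over all cells, class shares held at those of the control gave 18 of 62 genes at least 2-fold higher (28 as reported), against 991 of 13155. Of the pathway list 8 of 75 were then higher (20 as reported). Without the 5% deepest cells 19 of 61 genes were higher, against 1370 of 13014. With averages over cells 23 of 62 were higher, against 1575 of 13155. Genes at least 2-fold lower were 2 of 53 with at least 100 UMIs per gene, against 437 of 11029 (4 as reported). Without enterocyte-like cells they were 2 of 57, against 619 of 12947. *Gstm5* was at -0.058 with the alternative total, *Cyp20a1* at 0.029 with averages over cells, and *Cyp1a1* at -0.46 without the 5% deepest and -0.48 without enterocyte-like cells.

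In enterocyte-like cells 1 of 45 genes was lower with at least 100 UMIs, against 101 of 5743 of all genes (3 as reported). With resolution 0.5, with resolution 1.4 and with both libraries clustered together 1 of 55 was higher (12 as reported). This was against 690 of 9942, 749 of 9997 and 711 of 9792 of all genes. Lower were 3, 4 and 4, against 265, 261 and 253. In these 3 clusterings, in that order, log2 ratios were -0.12, -0.14 and -0.13 for *Mgst3*, -0.13, -0.18 and -0.24 for *Gstm3*, -0.24, -0.28 and -0.36 for *Cyp4b1*, -0.025, -0.075 and -0.13 for *Fmo5*, and -0.013, -0.061 and -0.0385 for *Nqo1*. *Mgst3* was at -0.0067 with the alternative total and -0.033 without the 5% deepest cells, and *Cyp4b1* at -0.027 with averages over cells.

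In stem-like cells markers at 2 times the mean gave 1 of 31 genes higher, against 1087 of 8782 (14 as reported). The median was then -0.23, with *Gsto1* at -0.0086, *Ugt2b34* at -0.82 and *Gstt3* at -0.41. At least 100 UMIs gave 6 of 37 higher and 3 lower, against 457 and 295 of 9789. Averages over cells put *Gstm3* at 0.22 and *Por* at 0.13, and joint clustering put *Por* at 0.082. In Paneth/goblet-like cells joint clustering gave 15 of 44 genes higher and 3 lower, against 633 and 241 of 9902. No regression gave 13 and 3 of 42, against 540 and 275 of 9599 (6 and 5 as reported). The alternative total gave a median of -0.072. In enteroendocrine-like cells lower genes were 6 of 36 with resolution 1.4, against 475 of 9787 (3 as reported). With markers at 1.5 times the other cells they were 8 of 41, against 487 of 10495. Under this setting 7 of 41 were higher, against 1295 of 10495, and the median was -0.14. In the same class the alternative total gave a median of -0.015. Averages over cells gave 19 of 37 higher, against 885 of 10149 (10 as reported), and a median of 1.02. At least 100 UMIs gave 4 of 19 higher, against 186 of 5630.

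Genes at least 2-fold lower in enterocyte-like than stem-like cells were 1 of 52 in the control with markers at 2 times the mean (3 as reported). This was against 2441 of 9410 of all genes. In *Taf4*IEC they were 1 of 53 with joint clustering, 1 of 51 with markers at 2 times the mean and 1 of 46 with at least 100 UMIs (2 as reported). Among all genes these were 3251 of 11052, 3079 of 9230 and 2531 of 8010. Of all values recomputed, 236 counts and medians and 854 log2 ratios moved by less than the limits set. The counts of 19 and 23 genes higher over all cells are among the 236. Another 374 log2 ratios of single genes moved beyond their counting interval without turning sign. Of *Taf4*IEC cells 49.1% had under 2000 UMIs, which limits what can be read in single cells.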
